A study of Mus musculus with 30 samples.

Results

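Fat cell transcripts were followed through 30 poly-A RNA libraries of whole mouse kidney. The 10 genes described were fixed by their symbols: Adipoq, Plin1, Cidec, Adrb3, Fabp4, Car3 and Cfd, which adipocytes in general use, and Ucp1, Elovl3 and Otop1, which mark brown adipocytes. Each symbol matched 1 row of the 57133 genes in both deposited count tables. The genes were chosen by their measured levels in these same libraries, which had shown fat transcripts in a wild-type kidney taken after nephrectomy. Their levels per library are therefore given as a description, with no test. The comparisons of the labelled groups come from fits over all genes and do not stand as independent evidence wherever that kidney enters them. There is no cutoff that separates members from other genes.

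The libraries came from mice of genotype Gsta2-H2BeGFP (TG) and from wild-type mice (WT). The series title places the raised Gsta2, a glutathione transferase, in proximal tubule cells of males, while the promoter behind the transgene, the strain and the age are not given in the sources used here. Kidneys of males taken 4 hours after ischemia-reperfusion injury combined with nephrectomy (IRI), a procedure in which blood flow to the organ is stopped and let back, gave 6 TG and 6 WT libraries. After nephrectomy without that injury (NX) there were 3 TG and 3 WT libraries of males. Without surgery there were 3 TG and 3 WT libraries of females, and 3 TG and 3 WT libraries of males. Samples whose label carries no number are called replicate 0. The labels do not say whether libraries came from separate animals, so a p-value here reflects only how far libraries of one group differ, which may be technical.

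Total counts ran from 59574069 to 91354407 in the 18 NX and IRI libraries and from 49040915 to 66446450 in the 12 no-surgery libraries, which form a table of their own. Levels are CPM (a gene's counts scaled to a common library total) after TMM scaling over all 30 libraries, and 3 counts, the limit that a count of 0 allows, stood for 0.0339 to 0.0551 CPM. These limits and the intervals below cover counting error only. EGFP, the tag of the transgene, had counts in all 15 TG libraries (1.30 to 16.5 CPM) and in 1 of 15 WT libraries: 206 counts of it (2.81 CPM) were in the library labelled WT IRI replicate 1. The 10 kidney genes of a marker list (Slc34a1, Lrp2, Umod and others) summed to between 17647 and 40038 CPM in every library.

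White adipocytes store triglyceride in a large lipid droplet and release hormones such as adiponectin. Brown adipocytes hold many mitochondria in which UCP1 lets protons leak back across the inner membrane, so that fuel is burned for heat. The fat pad around the mouse kidney contains cells of both kinds, and part of it can stay on the organ when a kidney is taken out. In these bulk libraries a lower level can reflect fewer fat cells or less RNA per fat cell, and the 2 cannot be told apart.

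RefSeq promoters (GRCm38.p6, 250 bases before to 50 after the start) were available for 6 of the 10 genes. Those of Ucp1, Adipoq and Plin1 are shown because the contrast between the first, a brown fat gene, and the others carries the main description. Capitals mark AGGTCA (a core site of many nuclear receptors) and CCAAT on either strand, and these stretches do not overlap each other. AGGTCA occurs in 16.3%, CCAAT in 37.4% and TATAA in 24.9% of all 32851 promoters of this length. The Ucp1 stretch, chr8:83290098-83290397 on the plus strand, holds 1 AGGTCA. The Adipoq stretch, chr16:23146286-23146585 on the plus strand, holds 3 CCAAT motifs. The Plin1 stretch, chr7:79732727-79733026 on the minus strand, holds none of these letters, and none of the 3 stretches holds TATAA.
Ucp1: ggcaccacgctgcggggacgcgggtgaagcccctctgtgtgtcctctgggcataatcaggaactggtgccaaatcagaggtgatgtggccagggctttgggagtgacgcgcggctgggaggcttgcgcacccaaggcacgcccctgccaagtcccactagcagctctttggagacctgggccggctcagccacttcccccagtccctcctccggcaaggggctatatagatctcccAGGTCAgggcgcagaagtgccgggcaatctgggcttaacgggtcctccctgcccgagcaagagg
Adipoq: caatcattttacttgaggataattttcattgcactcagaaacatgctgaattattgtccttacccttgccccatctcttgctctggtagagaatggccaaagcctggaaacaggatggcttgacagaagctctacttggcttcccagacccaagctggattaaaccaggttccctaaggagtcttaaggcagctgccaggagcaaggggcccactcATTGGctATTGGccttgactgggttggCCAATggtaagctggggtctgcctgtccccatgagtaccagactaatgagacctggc
Plin1: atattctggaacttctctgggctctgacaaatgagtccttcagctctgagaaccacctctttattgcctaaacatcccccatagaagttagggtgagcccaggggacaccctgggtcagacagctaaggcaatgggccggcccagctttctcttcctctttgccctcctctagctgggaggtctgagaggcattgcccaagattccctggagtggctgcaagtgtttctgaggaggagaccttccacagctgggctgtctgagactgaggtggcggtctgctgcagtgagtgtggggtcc

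Adipoq (ENSMUSG00000022878, chromosome 16, 22965286 to 22976778 on GRCm39, as the tables give it) encodes adiponectin, a hormone made almost exclusively by adipocytes. It had counts in 20 of 30 libraries: in all 12 no-surgery libraries and in 8 of the 18 NX and IRI libraries. TG IRI libraries held 2.41, 0.0978, 0, 1.88, 0 and 0 CPM (replicates 0 to 5), and WT IRI libraries held 0.919, 0.109, 0, 1.37, 0 and 0 CPM. TG NX libraries held 0.881, 0 and 0 CPM, and WT NX libraries held 38.3, 0 and 0 CPM. The libraries of each surgery group fell apart into some with Adipoq and some with next to none, and WT NX replicate 0 stood far above all other NX and IRI libraries.

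Without surgery, TG females held 1.5, 3.78 and 8.98 CPM of Adipoq (replicates 0 to 2) and WT females held 1.80, 22.2 and 1.11 CPM. TG males held 2.74, 22.7 and 5.35 CPM, and WT males held 0.574, 11.3 and 6.84 CPM. Every no-surgery group overlapped every other, and within each the highest library was several times the lowest. At 1 CPM or more, Adipoq was found in 15 libraries, 4 of them NX or IRI and 11 of them no-surgery, while Ucp1 was found in 16, of which 6 were NX or IRI and 10 were no-surgery.

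**Figure D1:**
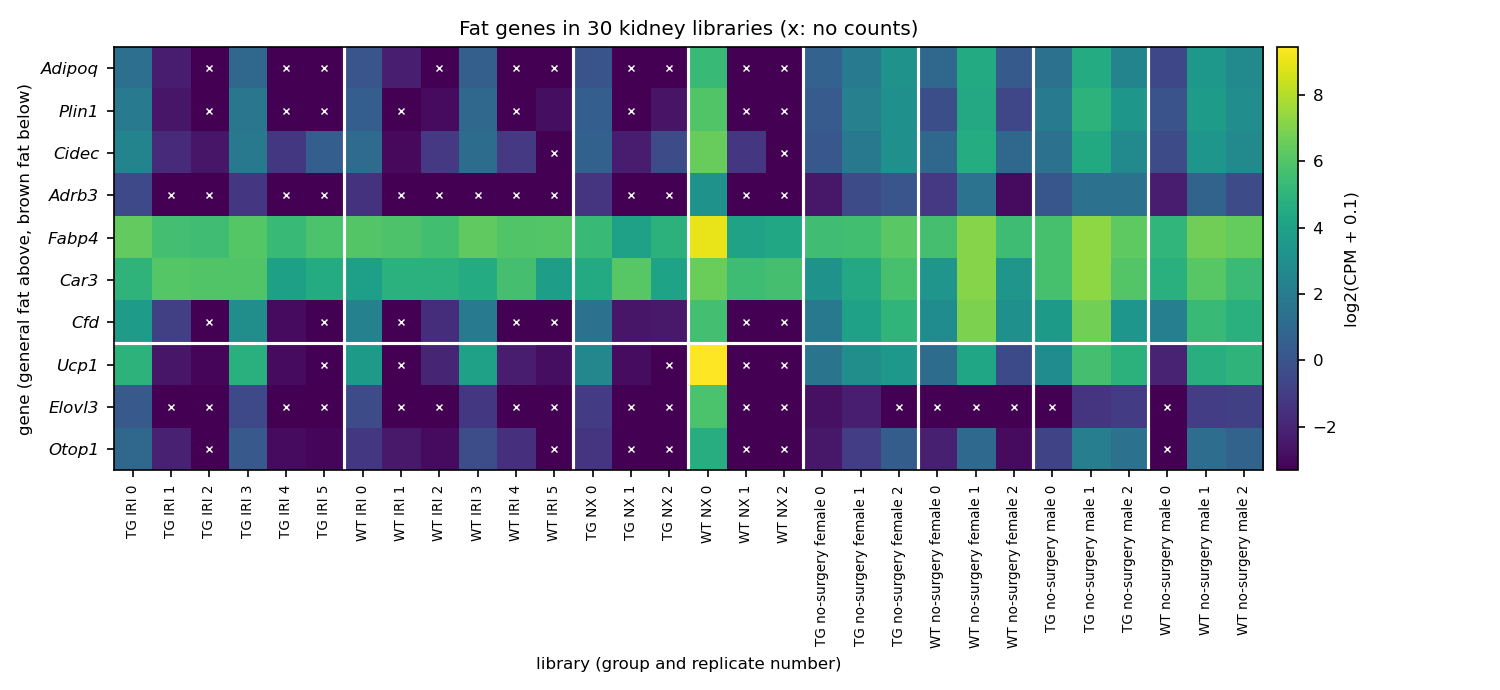
Levels of the 10 fat genes (rows) in the 30 libraries (columns, by group), coloured by log2(CPM + 0.1), with a cross where a library had no counts. WT NX replicate 0 carries the highest level of 8 of the 10 genes, and Fabp4 and Car3 have counts in all 30 libraries.

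Plin1 (ENSMUSG00000030546, chromosome 7, 79369966 to 79382651) encodes the protein that coats the fat cell's lipid droplet. It held 3.90, 0.0734, 0, 3.15, 0 and 0 CPM in TG IRI libraries and 1.32, 0, 0.0277, 1.83, 0 and 0.0367 CPM in WT IRI libraries. It held 1.32, 0 and 0.0575 CPM in TG NX libraries and 63.2, 0 and 0 CPM in WT NX libraries. The libraries that were high in Adipoq were high in Plin1 too. Without surgery it lay between 0.554 CPM (WT female replicate 2) and 30.4 CPM (TG male replicate 1).

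Cidec (ENSMUSG00000030278, chromosome 6, 113401595 to 113412721) makes a protein that lets small lipid droplets pass their fat into larger ones. It reached 87.8 CPM in WT NX replicate 0 and 0.301 and 0 CPM in the other 2 WT NX libraries. Unlike Adipoq it kept low counts in most of the remaining libraries, and 2 of 30 had none. Adrb3 (ENSMUSG00000031489, chromosome 8, 27715804 to 27740644), the receptor through which noradrenaline acts on fat cells, was the scarcest of the general fat genes, with 9.11 CPM in WT NX replicate 0, at most 2.81 CPM elsewhere and no counts in 13 libraries. Cfd (ENSMUSG00000061780, chromosome 10, 79726687 to 79728489), the complement protease adipsin that fat cells secrete, was highest in WT female replicate 1 (123 CPM) and TG male replicate 1 (105 CPM). WT NX replicate 0 came after them with 48.7 CPM. So the library with the most Ucp1 was not the one with the most Cfd.

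Ucp1 (ENSMUSG00000031710, chromosome 8, 84016981 to 84025081) had the widest range of the brown fat genes. TG IRI libraries held 30.8, 0.0734, 0.0173, 27.6, 0.0292 and 0 CPM, and WT IRI libraries held 12.5, 0, 0.152, 15.7, 0.101 and 0.0367 CPM. TG NX libraries held 5.87, 0.0347 and 0 CPM, and WT NX libraries held 699, 0 and 0 CPM. WT NX replicate 0 was thus 13.8 times the next highest of the 30 libraries, TG male replicate 1. Without surgery, TG females held 2.96, 7.78 and 11.2 CPM, WT females held 2.22, 18.6 and 0.642 CPM, TG males held 7.36, 50.7 and 29.7 CPM, and WT males held 0.135, 26.4 and 31.9 CPM. The no-surgery groups overlapped one another.

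Elovl3 (ENSMUSG00000038754, chromosome 19, 46120336 to 46124133), an elongase that brown fat uses to build very long fatty acids and that cold induces there, was at 56.0 CPM in WT NX replicate 0. Its next highest value was 1.09 CPM in TG IRI replicate 0, a ratio of 51.5, and 18 of 30 libraries had no counts of it. Among no-surgery libraries, females held 0.0510, 0.113 and 0 CPM (TG) and no counts in any WT library, and males held 0, 0.280 and 0.370 CPM (TG) and 0, 0.394 and 0.440 CPM (WT). Otop1 (ENSMUSG00000051596, chromosome 5, 38433316 to 38461552), a proton channel abundant in brown fat, was at 24.8 CPM in WT NX replicate 0 and at most 4.26 CPM elsewhere. These 2 genes had WT NX replicate 0 as their highest library, as Ucp1 did.

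The 6 of the 18 NX and IRI libraries highest in Adipoq were TG IRI replicates 0 and 3, WT IRI replicates 0 and 3, TG NX replicate 0 and WT NX replicate 0. For 7 of the 10 genes, Adipoq among them by this choice, these 6 lay above the other 12. The gap was narrow for Cidec (lowest of the 6 at 1.47 CPM, highest of the 12 at 1.33 CPM) and Otop1 (0.294 and 0.236 CPM). The exceptions were Adrb3, which had no counts in WT IRI replicate 3, and Fabp4 and Car3, which were spread over all libraries. The label that put these 6 in their groups is genotype and treatment, and both genotypes and both treatments are among them. Whether a shared dissection or preparation links them was not tested.

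Scaled to gene length as deposited, the order within WT NX replicate 0 was Ucp1 (427 CPM per kilobase), Fabp4 (116), Cfd (52.8), Cidec (47.3), Car3 (33.8), Elovl3 (28.3), Adipoq (27.7), Plin1 (13.6), Otop1 (7.22) and Adrb3 (2.7 CPM per kilobase). The 10 genes together took 0.153% of that library's counts and 0.0046% to 0.0607% of the counts of the other 29 libraries. A brown fat gene therefore led the fat transcripts of this kidney per unit of deposited length, and Elovl3 and Adipoq were at nearly the same level. The deposited length is the summed exon length of a gene, not that of the transcript in use. The order of genes and the shares per kilobase thus depend on the annotation. In CPM without length, Ucp1 (699 CPM) also lay above Fabp4 (522 CPM) in this library.

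The ratio of Ucp1 to Adipoq, both per kilobase, was taken in the 18 libraries with at least 10 Adipoq counts. It was 10.8 and 12.4 in TG IRI replicates 0 and 3, 11.5 and 9.65 in WT IRI replicates 0 and 3, 5.63 in TG NX replicate 0 and 15.4 in WT NX replicate 0 (95% counting interval 14.8 to 16.1). Without surgery it was 1.66, 1.74 and 1.05 in TG females, 1.04, 0.706 and 0.489 in WT females, 2.27, 1.88 and 4.69 in TG males and 0.199, 1.97 and 3.94 in WT males. The 6 NX and IRI values, 5.63 to 15.4, did not overlap the 12 no-surgery values, 0.199 to 4.69. TG IRI replicate 1 and WT IRI replicate 1, with 8 Adipoq counts each, fell below the cutoff. Both held less Ucp1 than Adipoq per kilobase, so the split is limited to the libraries above the cutoff. The difference is a description: the NX and IRI libraries and the no-surgery libraries come from separate tables, so surgery and table cannot be told apart.

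**Figure D2:**
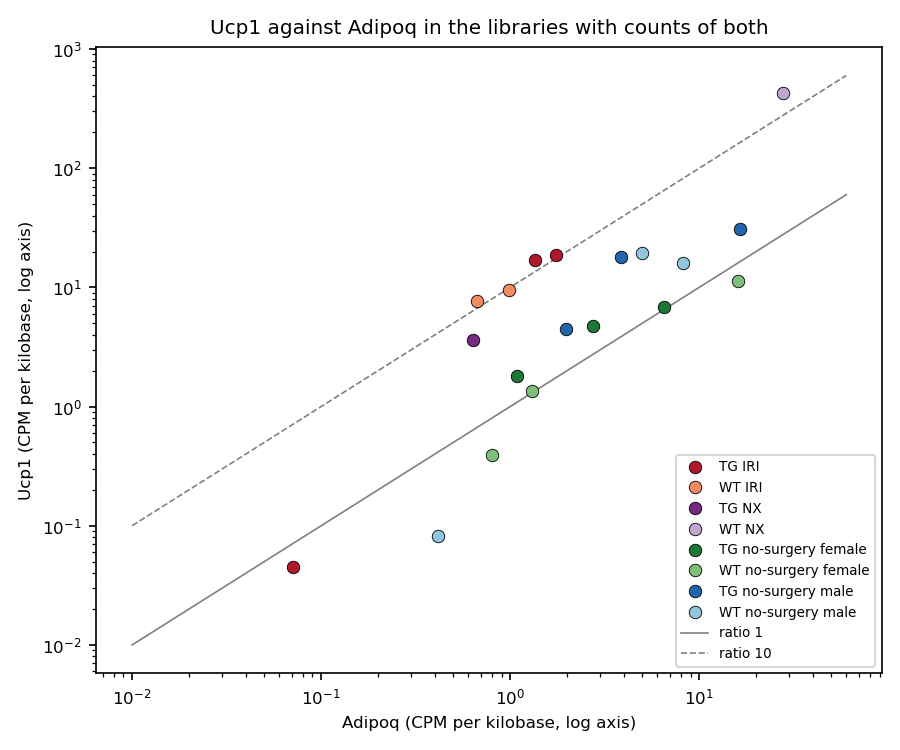
Ucp1 against Adipoq, both in CPM per kilobase on log axes, one point per library with counts of both, coloured by group, with lines where the ratio is 1 and 10. The NX and IRI libraries high in Adipoq lie near or above the line of ratio 10 except TG NX replicate 0 (5.63), and the no-surgery libraries lie at ratios of 4.69 and below. TG IRI replicate 1, with only 8 Adipoq counts, lies below the line of ratio 1.

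Elovl3 over Adipoq gave a like split, at 0.161 to 1.02 in the 6 NX and IRI libraries against 0 to 0.0484 in the 12 no-surgery libraries. Otop1 over Adipoq overlapped, at 0.134 to 0.317 against 0 to 0.201. The general fat genes overlapped as well: Plin1 over Adipoq was 0.396 to 0.499 against 0.124 to 0.590, Cidec over Adipoq was 1.18 to 1.73 against 0.492 to 1.21, and Cfd over Adipoq was 1.90 to 8.16 against 2.95 to 11.8. Of the summed level per kilobase of the brown genes plus Adipoq, Plin1, Cidec, Adrb3 and Cfd, the 3 brown genes made up 45.7% to 76.2% (median 55.2%) in the 6 NX and IRI libraries and 1.38% to 46.4% (median 17.7%) in the 12 no-surgery libraries. The makeup of the fat transcripts, and not only their amount, thus varied between libraries, with the highest no-surgery share just inside the range of the NX and IRI libraries.

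**Figure D3:**
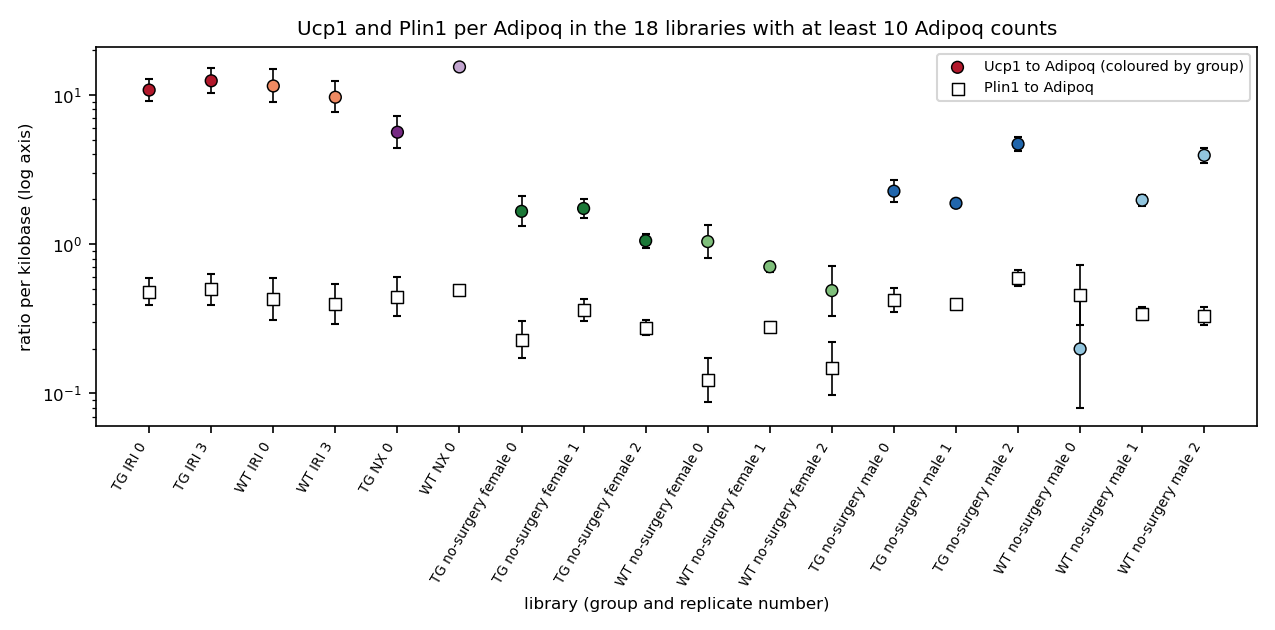
Ratio of Ucp1 to Adipoq (filled, coloured by group) and of Plin1 to Adipoq (open), per kilobase on a log axis, in each of the 18 libraries with at least 10 Adipoq counts. Plin1 stays between 0.124 and 0.590 of Adipoq, while Ucp1 runs from 0.199 to 15.4.

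Fabp4 (ENSMUSG00000062515, chromosome 3, 10269148 to 10273636), a fatty acid carrier of adipocytes that capillary endothelium and macrophages also make, had counts in all 30 libraries. TG IRI libraries held 84.4, 49.8, 46.2, 68.0, 40.9 and 57.3 CPM, and WT IRI libraries held 64.7, 59.3, 47.7, 80.7, 64.1 and 65.1 CPM. TG NX libraries held 38.8, 15.9 and 29.9 CPM, and WT NX libraries held 522, 16.5 and 19.7 CPM. Apart from WT NX replicate 0, every NX library was below every IRI library. In the no-surgery libraries Fabp4 lay between 33.6 and 155 CPM, highest in TG male replicate 1.

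Car3 (ENSMUSG00000027559, chromosome 3, 14928572 to 14937583), a carbonic anhydrase of fat, muscle and liver, also had counts in all 30 libraries, from 8.98 CPM (TG female replicate 0) to 154 CPM (TG male replicate 1). TG IRI libraries held 15.4 to 67.9 CPM (median 47.4) and WT IRI libraries held 14.1 to 51.9 CPM (median 25.6). TG NX libraries held 22.4, 68.9 and 16.7 CPM, and WT NX libraries held 96.7, 44.6 and 51.7 CPM. The groups overlapped. In the 10 libraries with no Adipoq count, Fabp4 was at 15.9 to 65.1 CPM and Car3 at 14.1 to 68.9 CPM, while Cidec was at 0 to 1.33 CPM and none of the other 6 genes passed 0.236 CPM. Both genes were thus present where adiponectin was not detected.

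**Figure D4:**
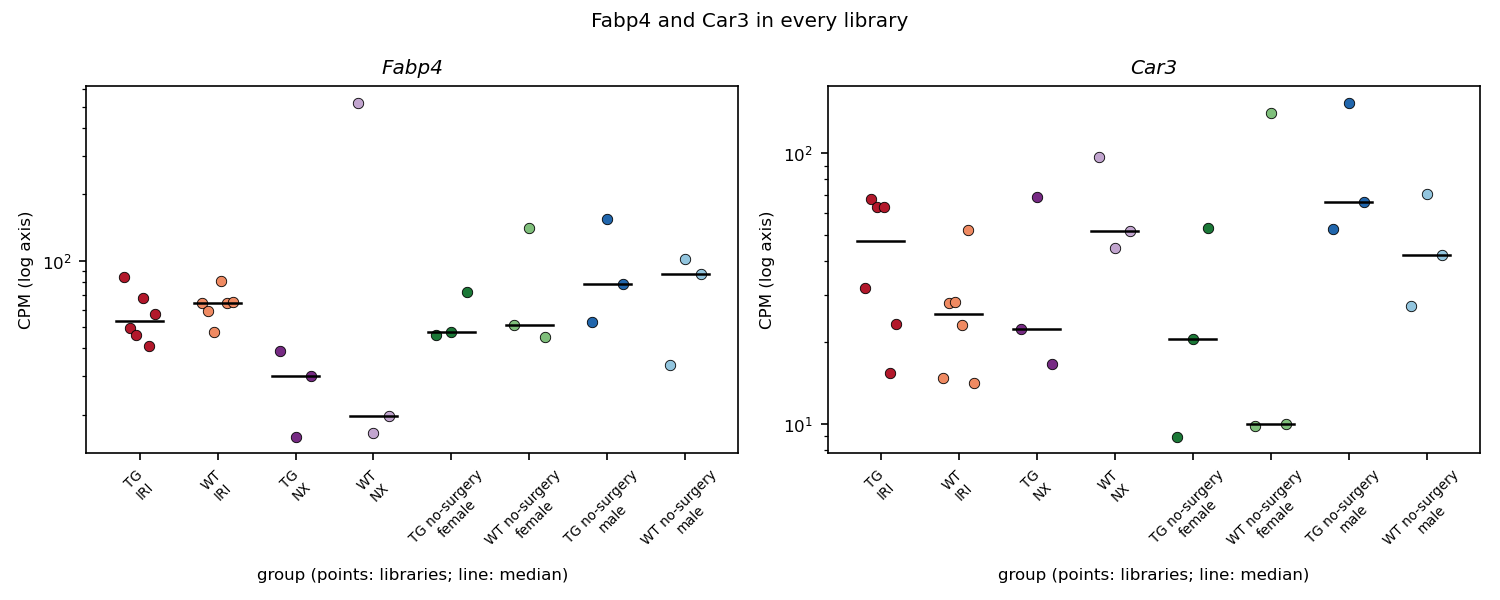
Fabp4 and Car3 in every library (CPM on a log axis) by group, with points for libraries and a line at each group's median. Fabp4 is at 40.9 to 84.4 CPM in the 12 IRI libraries and at 15.9 to 38.8 CPM in 5 of the 6 NX libraries, with WT NX replicate 0 at 522 CPM, while the Car3 groups overlap.

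Over all 30 libraries the Pearson r of log2 CPM with Adipoq was 0.98 for Plin1, 0.97 for Cfd, 0.93 for Ucp1, 0.92 for Adrb3, 0.89 for Cidec, 0.87 for Otop1, 0.71 for Fabp4, 0.62 for Elovl3 and 0.31 for Car3. Without WT NX replicate 0 and TG male replicate 1, the 2 libraries farthest from the median of Adipoq, these were 0.98, 0.97, 0.92, 0.90, 0.86, 0.85, 0.65, 0.55 and 0.15 in the same order. Within the 18 NX and IRI libraries Elovl3 had an r of 0.96, against 0.46 within the 12 no-surgery libraries, while Car3 had 0.21 and 0.83. The points share library depth and scaling, and the values are given as a description.

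Of the 20617 genes ranked by this r, the 20 nearest to Adipoq outside the 10 had an r of 0.812 to 0.936, among them Retn, Adig, Cox8b, Cidea, Thrsp, Slc36a2, Prkar2b, Nat8l, Acvr1c, Aoc3, Meox2, Kcnk3, Myl1, Vat1l, Ankef1, Aox1, Arxes2, Phlda3 and Orm1. Of the 20, 9 are in the marker lists. Retn, the hormone resistin, was highest in WT female replicate 1 (3.87 CPM), as Meox2 was (2.35 CPM), and Vat1l was highest in TG male replicate 1 (1.15 CPM). The others named were highest in WT NX replicate 0. Cidea, a lipid droplet protein of brown fat, reached 92.6 CPM there against a median of 1.14 CPM over all 30 libraries, Cox8b, a subunit of cytochrome oxidase used in brown fat and muscle, reached 37.3 against 1.26 CPM, and Thrsp, which acts in fatty acid synthesis, reached 156 against 4.55 CPM. Of the genes at 1 CPM or more in WT NX replicate 0, 5 were over 10 times any other library: Ucp1, Elovl3, Ncan, Hephl1 and Mb (myoglobin), the last 3 of them at only 2.73, 1.46 and 1.04 CPM and picked out after their values were seen.

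The list of 30 other general adipocyte genes summed to 8596 CPM in WT NX replicate 0 and to between 2137 and 3416 CPM in the other 17 NX and IRI libraries. The list of 24 other brown fat genes summed to 2301 CPM there and to between 1149 and 2057 CPM in the 17. Cidea is in both lists. Many of these genes had counts where Adipoq had none: 19 of the 30 and 13 of the 24 were at 1 CPM or more in every one of the 10 libraries with no Adipoq count. By the mean over all 30 libraries the most abundant of the first list were Lpl (lipoprotein lipase, 993 CPM in WT NX replicate 0), Cd36 (a fatty acid transporter, 963 CPM there) and Scd1 (a fatty acid desaturase, 2012 CPM there). By the same mean those of the second were Gk (glycerol kinase, 834 CPM in WT NX replicate 0), Pank1 (a kinase of coenzyme A synthesis, 527 CPM) and Ppargc1a (a coactivator of mitochondrial genes, 73.6 CPM). In WT NX replicates 1 and 2, Lpl was at 484 and 549 CPM and Scd1 at 316 and 332 CPM. Cd36 (948 and 983 CPM), Pank1 (507 and 578 CPM) and Ppargc1a (70.5 and 76.7 CPM) lay there on both sides of their values in WT NX replicate 0. Gk was higher in both, at 873 and 991 CPM. The brown fat transcription factor genes Zic1 and Lhx8 had no counts in any library.

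Markers of other tissues near the kidney were read the same way in WT NX replicate 0 and in the other 17 NX and IRI libraries. The 10 adrenal cortex genes summed to 3.25 CPM against 1.73 to 5.72, with Nr5a1 at 0 in all 30 libraries. The 7 adrenal medulla and sympathetic genes summed to 0.0497 CPM against 0.278 to 1.22, with Th at 0 throughout. The 9 lymphocyte genes summed to 2.54 CPM against 1.09 to 6.08. The 11 skeletal muscle genes summed to 17.7 CPM against 6.11 to 21.2. Most of that was Pvalb, at 14.7 CPM and at 14.9 and 15.2 CPM in the other 2 WT NX libraries. Acta1 and Ckm were at 0 in WT NX replicate 0, while Myl1 was at 1.49 CPM there and at most 0.579 CPM in the other 29 libraries. The 7 liver genes summed to 309 CPM against 162 to 579. Most of that was Ttr, at 291 CPM and at 286 and 288 CPM in the other 2 WT NX libraries. The 6 urothelium genes summed to 42.6 CPM against 0.965 to 199, the highest being mostly Krt20 (191 CPM in TG IRI replicate 2). Within NX, that sum was 0.965 and 3.27 CPM in the other 2 WT libraries and 4.48 to 10.8 CPM in TG libraries. Upk1a was at 14.4 CPM in WT NX replicate 0 and at 1.56 and 0.263 CPM in the other 2 WT NX libraries. For Krt5 these were 5.43, 0.201 and 0 CPM. The no-surgery urothelium sums ran from 11.6 to 45.5 CPM. Whether urothelium came with the fat was not tested. The 10 vessel and stroma genes summed to 1111 CPM against 554 to 1153. Above the other 17 were the 7 capsule and mesothelium genes, at 34.0 CPM against 7.47 to 29.6. That sum rested mostly on Upk1b (11.7 CPM) and Krt19 (10.9 CPM), and which tissue these 2 transcripts came from was not tested. Msln (0.265 CPM), Upk3b (3.38 CPM) and Wt1 (7.01 CPM) were below their medians over the other 29 libraries (0.636, 3.99 and 8.65 CPM). Lrrn4 (0.464 CPM) was highest in WT NX replicate 0. Of the 10 exocrine pancreas genes only Cela1 had counts in WT NX replicate 0 (101 CPM), and it was at 55.0 to 96.8 CPM in the other 29 libraries, while Prss1, Cela2a and Amy2b were at 0 in all 30. The kidney genes, at 33562 CPM, lay within the range of the others, 25103 to 40038 CPM.

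The first comparison of the design sets TG against WT mice. None of the 10 genes was called in any of the 4 settings by edgeR's quasi-likelihood test at an adjusted p under 0.05. In IRI males, 4 of the 10 passed the filter on low counts, where 0.0701% of 17111 genes were called. Their adjusted p ran from 0.409 to 0.743, none had an unadjusted p under 0.05, and neither DESeq2 nor limma-voom called one. None was called either when any of the 12 libraries, that with EGFP counts among them, was left out. Car3 averaged 44.1 ± 23.2 CPM in TG IRI libraries and 26.7 ± 13.8 CPM in WT IRI libraries (SD, n = 6 each), a log2 fold change of 0.71 ± 0.38 (SE) with an adjusted p of 0.409 by edgeR. In NX males, 3 passed the filter, where 0.0117% of 17100 genes were called. Their adjusted p ran from 0.730 to 0.763, and 2 of them (Cidec and Fabp4) had an unadjusted p under 0.05. DESeq2, which gave an adjusted p for 1 of the 3, and limma-voom called none. WT NX replicate 0, from whose levels the genes were chosen, is 1 of the 3 WT libraries here, so both unadjusted values restate that library.

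Without surgery all 10 passed the filter. In females 0.0418% of 19126 genes were called, and the 10 had adjusted p of 0.641 to 0.999 by edgeR. Adipoq had a log2 fold change of -0.82 ± 1.16 and Ucp1 of 0.03 ± 1.24 (SE), TG over WT. In males 0.00523% of 19126 genes were called, and the 10 had adjusted p of 0.924 to 0.987. Adipoq had a log2 fold change of 0.70 ± 1.15 and Ucp1 of 0.58 ± 1.21. None of the 10 had an unadjusted p under 0.05 in either sex. DESeq2, which gave an adjusted p for 9 of the 10 in each sex, and limma-voom called none. Libraries of one group differed by more than these fold changes, so differences of this size were not detectable here. The signs rest on single libraries: without WT female replicate 1 the Adipoq value in females was 1.71, and without TG male replicate 1 the Adipoq value in males was -0.62. Ucp1 in females ran from -0.50 to 2.36 and in males from -0.065 to 1.12 over the libraries left out in turn.

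The second comparison sets females against males without surgery. Within TG mice all 10 genes had a log2 fold change below 0, from -2.08 to -0.75, but none was called by edgeR, where 21.2% of 19126 genes were. The adjusted p ran from 0.229 to 0.574, none had an unadjusted p under 0.05, and DESeq2 and limma-voom called none. Adrb3 held 0.0765, 0.678 and 0.939 CPM in TG females against 0.981, 2.60 and 2.67 CPM in TG males. Its log2 fold change was -1.86 ± 1.16 (SE), with an adjusted p of 0.299 by edgeR. These groups narrowly do not overlap, as for 1 of the 10 genes. With 3 libraries in each group this can arise by chance, and the share over all genes was not determined. Adipoq had a log2 fold change of -1.07 ± 1.16, which was 0.25 without TG male replicate 1, and Ucp1 of -1.96 ± 1.26. Within WT mice 7 were above and 3 below 0, and again none was called, where 21.3% of 19126 genes were. Adipoq had a log2 fold change of 0.45 ± 1.15, which was -2.08 without WT female replicate 1 and -0.08 without WT male replicate 0, and Ucp1 of -1.41 ± 1.25. The nearest to a call was Elovl3, with no counts in 3 WT females and counts in 2 of 3 WT males. Its adjusted p was 0.0584 by edgeR, and DESeq2 called it (adjusted p 0.00614). Its unadjusted p alone of the 10 was under 0.05 in edgeR, and limma-voom called none. Without WT male replicate 0 edgeR called Elovl3 lower in females (adjusted p 0.0340), and without WT female replicate 1 it called Car3 lower.

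The lists of other fat genes held calls in both directions between the sexes. In TG mice, of the 30 general adipocyte genes 3 were called higher in females and 5 lower, and of 22 brown fat genes tested 4 were called higher and 2 lower, where 9.87% of all genes were called higher and 11.3% lower. In WT mice, of the general adipocyte genes 6 were called higher and 2 lower, and of the brown fat genes 3 higher and 2 lower, where 10.1% of all genes were called higher and 11.3% lower. For the general genes the median log2 fold change was -0.45 in TG mice and 0.41 in WT mice, beside 0.02 and 0.03 over all genes tested. None of these genes was called between TG and WT in any setting.

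The third comparison sets IRI against NX. In TG males all 10 genes passed the filter and none was called by edgeR, where 29.4% of 19264 genes were. All 10 log2 fold changes were above 0, from 0.29 to 2.22, with adjusted p from 0.304 to 0.885. None had an unadjusted p under 0.05, and DESeq2, which gave an adjusted p for 4 of the 10, and limma-voom called none. Adipoq had a log2 fold change of 1.19 ± 1.97 and Ucp1 of 2.22 ± 2.35 (SE). Fabp4 was at 40.9 to 84.4 CPM in the 6 TG IRI libraries and at 15.9 to 38.8 CPM in the 3 TG NX libraries. Its log2 fold change was 1.02 ± 0.70, with an adjusted p of 0.304 by edgeR. These groups do not overlap, as for 1 of the 10 genes, and the share over all genes was not determined.

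In WT males 8 of the 10 genes were called lower after IRI, where 30.9% of 19264 genes were called, 14.1% of them all in that direction. The genes were proposed from WT NX replicate 0, which is 1 of the 3 NX libraries here, so this count restates that library's values. Adipoq had a log2 fold change of -5.02 ± 1.78 (adjusted p 0.0378), Cidec of -5.15 ± 1.49 (0.0122), Ucp1 of -5.64 ± 2.10 (0.0481) and Elovl3 of -6.83 ± 1.75 (SE; 0.00563), all by edgeR's quasi-likelihood test. Car3 had -1.28 ± 0.48 (adjusted p 0.0490). Plin1, Adrb3 and Otop1 were also called, while Fabp4 (-1.57 ± 0.64, adjusted p 0.0717) and Cfd were not. For all 10 the groups overlapped. For Fabp4 they did so because WT NX replicate 0 (522 CPM) lay above all WT IRI libraries and the other WT NX libraries (16.5 and 19.7 CPM) below them. DESeq2, which gave an adjusted p for 4 of the 10, and limma-voom called none of them.

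Without WT NX replicate 0, 1 of the 10 was called in WT males, where 26% of 20025 genes were. Fabp4 was then higher after IRI, at 47.7 to 80.7 CPM in the 6 WT IRI libraries against 16.5 and 19.7 CPM in the 2 remaining WT NX libraries, with a log2 fold change of 1.82 ± 0.31 (SE) and an adjusted p of 0.000242 by edgeR. None of the 8 genes called with that library was called without it, and Car3 had -0.84 with an adjusted p of 0.276. Adipoq, Elovl3 and Ucp1 had no counts in the 2 remaining WT NX libraries, so their fitted fold changes depend on the prior count and are no bound. Leaving out single WT IRI libraries also moved the count: 6 genes were called without replicate 0, 7 without replicate 3, 5 without replicate 4, and 4 without replicate 1 (the library with EGFP counts), 2 or 5. WT NX replicate 0 was kept in each of these fits, and the share of all genes called in them is not reported. With WT NX replicate 0 kept and replicate 1 or 2 left out, Fabp4 was called lower, at -2.09 (adjusted p 0.0109) or -2.08 (0.0137). The direction of the Fabp4 call thus turned on WT NX replicate 0. When WT NX replicate 0 was left out of the fit that also gives the TG contrast, a setting added after the data were seen, Fabp4 kept a log2 fold change of 1.02 in TG males, its SE fell to 0.25 and its adjusted p to 0.00396, where 29% of 20025 genes were called and no other member was.

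**Figure D5:**
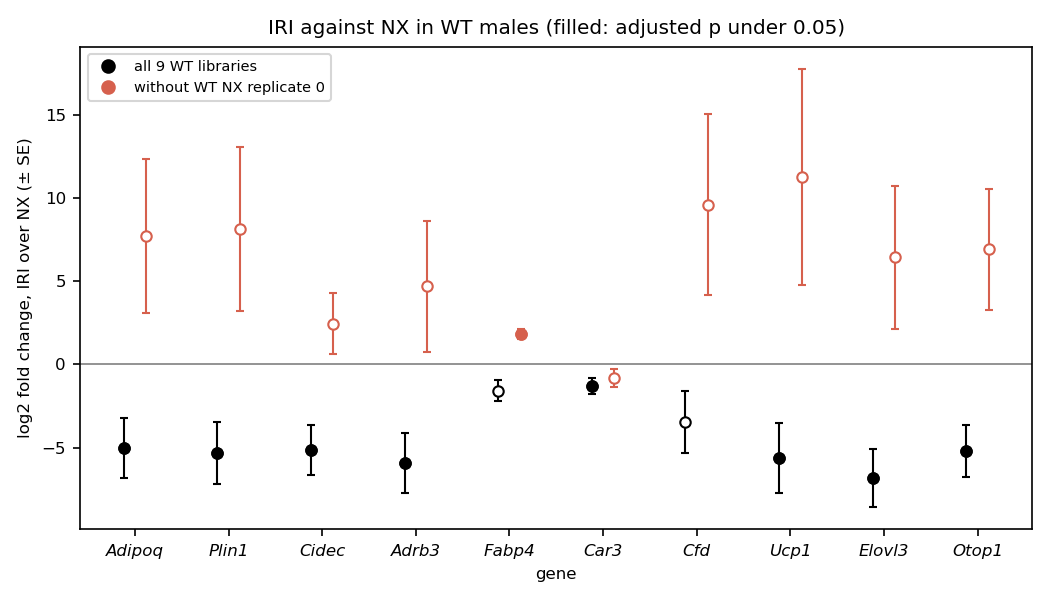
Log2 fold change of the 10 genes, IRI over NX in WT males, with SE, for the fit with all libraries and for the fit without WT NX replicate 0 (filled where the adjusted p is under 0.05). With all libraries the 10 values lie between -6.83 and -1.28, and without that library Fabp4 is the one gene called, at 1.82.

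Of the other general adipocyte genes, 1 was called higher and 16 lower after IRI in WT males (30 tested, median log2 fold change -1.02, beside -0.01 over all genes), and of the other brown fat genes 1 higher and 11 lower (22 tested, median -0.60), where 16.8% of all genes were called higher and 14.1% lower. Without WT NX replicate 0 these became 4 higher and 7 lower, and 3 higher and 1 lower, where 14.9% of all genes were called higher and 11.2% lower. In TG males the counts were 1 higher and 2 lower in each list, where 16.4% of all genes were called higher and 13% lower. Without WT NX replicate 0 they were 5 higher and 4 lower, and 3 higher and 3 lower, where 16.2% were called higher and 12.8% lower. Scd1 averaged 66.4 ± 22.2 CPM in the 6 WT IRI libraries (SD) and held 2012, 316 and 332 CPM in the 3 WT NX libraries, with a log2 fold change of -3.75 ± 0.48 (SE; adjusted p 8.68e-06 by edgeR). Cidea, which is in both fat lists, was counted in each for WT males. Of the 10 vessel and stroma genes, most of them stromal, none was called higher in WT males. Cd36, which is also in the general adipocyte list, was called lower there. In TG males Gpihbp1, a capillary gene, was called higher and Dpp4 lower (the last 2 named after their values were seen). The part of capillary or immune cells in the Fabp4 difference was not tested.

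The difference between the genotypes was also tested against the injury and against sex. For the 10 genes the interaction of genotype and injury had adjusted p of 0.411 to 0.583 by edgeR, with 9 of the 10 at an unadjusted p under 0.05, as 9.59% of all 19264 genes were, while 0% were called. These 9 rest on WT NX replicate 0, from whose levels the genes were chosen. Without it the adjusted p ran from 0.426 to 0.871, with 1 of the 10 at an unadjusted p under 0.05, as 11.3% of 20025 genes were, while 0% were called. The interaction of genotype and sex had adjusted p of 0.661 to 0.944, with 0 of the 10 at an unadjusted p under 0.05, as 8.58% of 19126 genes were, while 0.00523% were called. None of the 10 was called in these tests.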

How the data were processed

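Poly-A RNA of whole mouse kidney (RNeasy kit, paired-end NovaSeq X Plus reads, per the labels' protocols) was measured in 30 libraries. The submitters' processing notes name fastp 0.23.2, STAR 2.7.0 and the build GRCm39. They deposited 2 tables of raw counts per gene, made with featureCounts 2.0.3 on Ensembl release 112 with an added EGFP gene, per the file headers. Of 57133 genes, 51881 (90.8%) carried a symbol.

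CPM were scaled by TMM over all 30 libraries with edgeR 4.0.16 (R 4.3.3) and divided by the deposited gene length where genes were compared. Groups were taken from the labels. Each comparison was fitted on the whole count table by edgeR's quasi-likelihood test (filterByExpr, two-sided, Benjamini-Hochberg adjustment over all genes tested, called at an adjusted p under 0.05), NX with IRI libraries apart from no-surgery libraries, TG against WT within IRI and within NX on those libraries alone. The procedure was tested on simulated data. Alternatives were DESeq2 1.42.0, limma-voom (3.58.1) with quality weights, RLE factors, no filter, halved counts, a replicate block and leaving out each library. An adjusted p that DESeq2 gave as NA was kept so. Likeness to Adipoq was the Pearson r of log2 CPM with a prior count of 2. Figures were drawn with matplotlib 3.10.9 and intervals computed with scipy 1.17.1 (Python 3.11.15).

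The members and the gene lists were chosen with earlier results of these data known. Named are the 10 members, the 20 genes with the highest r that have a symbol and are not predicted genes (1 of them is not reported here), and the 3 most abundant genes of the 2 fat lists. Of the other lists the sums, the defining markers at 0 and a few single genes, named after their values were seen, are given.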

Additional observations from a re-analysis of the deposited data

Results flagged for a closer look

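Among 20 sets of 6 libraries (a gene in a group), each tested for 1 library far from the rest, 2 stood out. A chance rate of about 1 in 20 would need independent sets without ties at 0. These sets share libraries and hold many values of 0, so the 2 are not set against chance. Adrb3 was at 0.270 CPM in WT IRI replicate 0 and had no counts in the other 5 WT IRI libraries, so any count there would have stood out. Car3 was at 51.9 CPM in WT IRI replicate 4, with 28.2 CPM in the next highest WT IRI library, a gap of 0.628 of the group's range where 0.625 is the limit.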

How the results depend on the processing

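The counts of members called that moved were these, given only to show how they moved with the processing. The share of all genes called is given above for the main fits. It is also given for IRI against NX without WT NX replicate 0, and is not reported for the other settings. With no filter on low counts, when all 10 were tested, 7 were called lower in TG against WT NX males. The high library there is WT NX replicate 0, from whose levels the genes were chosen. In the same setting 1 was called in females against males (WT). DESeq2 called 1 in that sex comparison, and leaving out 1 library gave 0 to 1. For IRI against NX, the TG count was 1 with a replicate block, 1 without WT NX replicate 0 and 0 to 1 over all libraries left out. The WT count was 0 by DESeq2, 0 by limma-voom, 5 with the block and 1 to 8 over libraries left out. Of the 20 genes most like Adipoq, 10 remained when the 12 no-surgery libraries alone were ranked. By limma-voom, log2 fold changes turned for Adipoq to 0.75 (TG against WT females), -0.66 (WT females against males) and 0.91 (WT IRI against NX), and in the last comparison for Cidec to 1.38, Fabp4 to 0.89 and Ucp1 to 2.22. Over libraries left out, TG against WT gave -1.66 to 1.71 for Adipoq and -0.50 to 2.36 for Ucp1 in females, and -0.62 to 1.46 and -0.065 to 1.12 in males. Adipoq in females against males ran from -1.93 to 0.25 (TG) and -2.08 to 1.22 (WT). WT IRI against NX ran from -5.89 to 7.71 for Adipoq, -5.72 to 2.45 for Cidec, -2.09 to 1.82 for Fabp4, -6.48 to 11.28 for Ucp1 and -8.29 to 6.43 for Elovl3. The upper ends of this comparison came without WT NX replicate 0. Adipoq, Ucp1 and Elovl3 then had no counts in the remaining WT NX libraries, so their upper ends depend on the prior count and are no bound. The cause of the other shifts was not tested. Same-numbered libraries had correlations of deviations from -0.0231 to 0.228, so the block uses a number and no known pairing. Genes with few counts are limited by depth, since 3 counts stand for 0.0339 to 0.0551 CPM.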
